A study of Mus musculus with 11 samples.

Results

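The regions described here are 563 CpG-dense stretches of the mouse genome whose DNA was neither unmethylated nor fully methylated in control blood progenitors. The autosomes were cut into fixed tiles of 1000 bp, and a tile was CpG-dense when at least 20 C positions, with the strands counted apart, had 10 or more reads in each of 10 libraries. A tile entered when the mean level of the 5 control libraries was from 10% to below 60%, where the level is the percent of C among C and T reads pooled over the tile's positions. There were 14602 CpG-dense autosomal tiles, of which 13498 lay below this range and 541 above it. All tests were run over 100150 tiles with at least 3 common C positions. Because control levels chose the members, those levels on their own are given as a description only. Knockout levels are not part of the rule, which was set with earlier results of these data known. The KO tests use the same control libraries, so differences over tiles chosen by the other cell type's controls are also given.

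The animals were C57BL/6 mice, 12 months old, in which both alleles of Dnmt3a carry loxP sites (f/f). The Mx1-Cre+ animals are called KO and the Mx1-Cre- animals control. The protocol gives 5 poly(I:C) injections for all samples, so the floxed alleles and the injections were shared by both genotypes. The Mx1 promoter responds to interferon and is not restricted to blood cells. LSK cells (Lin- Sca1+ cKit+, the marrow fraction that holds the stem cells) gave 3 KO and 3 control libraries. GMP cells (granulocyte-macrophage progenitors) gave 2 KO and 2 control libraries. A further GMP library, 352, has a title and a genotype field that disagree, so it was set in no group. The labels do not tie libraries to separate animals, and p-values measure the spread between libraries, which may be technical.

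Enhanced reduced representation bisulfite sequencing reads methylation near MspI sites (CCGG). Adding coverage over all listed positions gave 157 to 181 M for LSK and 95.4 to 110 M for the 4 grouped GMP libraries. The members had a median of 28 C positions and 105 reads per position and library. The 5 C positions of a Dnmt3a segment (chromosome 12, 3903653 to 3904031, GRCm38) were unlisted in the 3 KO LSK libraries, against 5 listed in each of the 3 control LSK libraries. KO GMP library 178 listed 4 of them, with 27.9% of the coverage of the GMP controls, and KO GMP library 179 listed 5 with 53.3%. LSK libraries 1330, 1331, 1333 and 1334 listed 211 to 229 Y-chromosome positions, against 1226 or more in the other grouped libraries. KO LSK library 1333 listed 129024 C positions that no other LSK library did, against 8117 to 26078 for the other LSK libraries. The start sites of Kit, Cd34, Flt3 and Procr, LSK markers with tested tiles, were below 1% in control GMP and control LSK, and the 5 GMP markers had no tested tile. The sorted cell types could therefore not be checked from these markers.

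DNA methyltransferases place methyl groups on the cytosine of CG dinucleotides. Dnmt3a acts on unmethylated DNA and Dnmt1 copies existing marks after replication. Most CpG islands are kept free of methylation, whereas scattered CpGs in gene bodies are mostly methylated. An intermediate level over a dense tile can arise in several ways. At imprinted control regions the allele of one parent is methylated and the other is not. At the edge of an island, called a shore, unmethylated positions lie next to methylated ones. The molecules or cells of a sample can also differ from each other at every position. Loss of DNMT3A function is common in clonal blood cell expansion and acute myeloid leukaemia in humans.

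Promoter sequences are shown for some members that fell in KO LSK and some that did not pass. Of the members, 75 gene starts had their whole RefSeq promoter, 250 bases before to 50 after the start, inside a member. These promoters held a median of 19 CG dinucleotides, against 7 over all 32817 mouse promoters in the table. CCGG, the MspI site, reads the same on both strands and contains a CG. It was present in 92.0% of these promoters and in 52.8% of all promoters. The rule for members asked for many listed C positions, and the assay reads near CCGG. Both favour promoters rich in CG and CCGG, so these contrasts cannot be tied to partial methylation. Promoters in other CpG-dense tiles were not compared. The sequences below are from RefSeq for GRCm38.p6 and run 5′ to 3′ on the gene's strand, with each CG in capitals. Hoxa5 (chr6:52204538-52204837, minus strand), Palm3 (chr8:84021224-84021523, plus strand) and Prom2 (chr2:127541368-127541667, minus strand) lie in members that fell in KO LSK. Plagl1 (chr10:13090582-13090881, plus strand) and Igf2r (chr17:12769657-12769956, minus strand) lie in members of imprinted genes that did not pass the test.
Hoxa5: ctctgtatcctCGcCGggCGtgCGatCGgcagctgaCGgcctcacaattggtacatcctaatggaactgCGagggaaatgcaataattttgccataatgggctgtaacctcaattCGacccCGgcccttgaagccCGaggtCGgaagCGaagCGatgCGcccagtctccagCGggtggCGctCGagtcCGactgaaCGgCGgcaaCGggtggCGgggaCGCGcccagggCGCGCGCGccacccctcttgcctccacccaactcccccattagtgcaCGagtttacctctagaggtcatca
Palm3: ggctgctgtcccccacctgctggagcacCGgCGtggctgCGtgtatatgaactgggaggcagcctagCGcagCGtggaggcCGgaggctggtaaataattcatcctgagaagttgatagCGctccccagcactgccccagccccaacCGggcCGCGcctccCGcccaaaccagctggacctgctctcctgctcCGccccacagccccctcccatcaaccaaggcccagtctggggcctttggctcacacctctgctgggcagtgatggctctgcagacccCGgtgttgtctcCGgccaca
Prom2: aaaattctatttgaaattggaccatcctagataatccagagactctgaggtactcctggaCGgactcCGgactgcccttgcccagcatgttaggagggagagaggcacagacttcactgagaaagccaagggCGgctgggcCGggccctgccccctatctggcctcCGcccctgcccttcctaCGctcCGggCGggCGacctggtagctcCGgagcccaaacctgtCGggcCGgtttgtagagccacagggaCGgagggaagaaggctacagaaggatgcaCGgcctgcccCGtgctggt
Plagl1: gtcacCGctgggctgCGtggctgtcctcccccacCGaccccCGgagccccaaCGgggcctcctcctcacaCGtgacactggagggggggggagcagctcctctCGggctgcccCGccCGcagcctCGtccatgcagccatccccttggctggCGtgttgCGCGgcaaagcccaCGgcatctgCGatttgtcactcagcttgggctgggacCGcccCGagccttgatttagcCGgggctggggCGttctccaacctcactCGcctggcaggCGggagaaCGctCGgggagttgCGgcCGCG
Igf2r: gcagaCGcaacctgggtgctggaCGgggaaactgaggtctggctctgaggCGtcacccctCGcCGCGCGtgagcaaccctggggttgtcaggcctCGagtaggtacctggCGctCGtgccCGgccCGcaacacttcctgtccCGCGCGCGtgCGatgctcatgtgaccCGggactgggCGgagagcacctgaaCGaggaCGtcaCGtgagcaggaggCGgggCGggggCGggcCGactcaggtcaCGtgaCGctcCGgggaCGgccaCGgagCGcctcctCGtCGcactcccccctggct
The Hoxa5 promoter holds 29 CG dinucleotides, and its 9 listed C positions averaged 33.8% in KO LSK and 65.7% in control LSK. Palm3 holds 14 CG dinucleotides, and its 21 listed positions averaged 21.5% in KO LSK and 51.5% in control LSK. Prom2 holds 15, and its 13 listed positions averaged 24.2% in KO LSK and 47.4% in control LSK. Plagl1 holds 26, and its 19 listed positions averaged 31.2% in KO LSK and 35.6% in control LSK. Igf2r holds 34, and its 28 listed positions averaged 24.6% in KO LSK and 27.3% in control LSK. The relation of the number of CG dinucleotides to the fall was not tested.

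Control levels were skewed to the low end of the range. The mean of the 5 controls was 10% to below 20% in 295 members (52.4%), and 104, 69, 51 and 44 members lay in the next steps of 10 points up to 60%. Just inside the lower limit were tiles of Csmd2, Rab10os and Adam33 at 10.002%, 10.02% and 10.05%, and just outside it tiles of Bhlha9, Fut4 and Cbs, each at 9.93% to 9.94%. At the upper limit, Pear1, Hoxa3 and Pi16 lay inside at 59.4%, 59.6% and 59.8%. Elfn1, St8sia1 and Gm38708 lay outside at 60.05%, 60.2% and 60.6%. The members were spread over all 19 autosomes, with 66 on chromosome 7, 59 on chromosome 2 and 56 on chromosome 11.

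A partial level had different make-ups at different tiles. Over the 19501 C positions of the members, 57.5% were below 20% in the mean of the 5 controls, 37.4% were intermediate at 20% to below 80%, and 5.11% were at 80% or more. A tile is called uniform when at least 80% of its positions were intermediate, and mixed when at most 40% were. By this measure 81 members were uniform (14.4%, exact binomial 95% interval 11.6 to 17.6), 359 were mixed (63.8%, 59.6 to 67.7) and 123 lay between. These intervals cover counting error over tiles only. The median control level was 43.9% in uniform, 28.3% in between and 14.8% in mixed tiles, so the make-up moved with the level. Position limits of 10% and 90% moved the split to 31.6% uniform and 34.6% mixed.

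**Figure D1:**
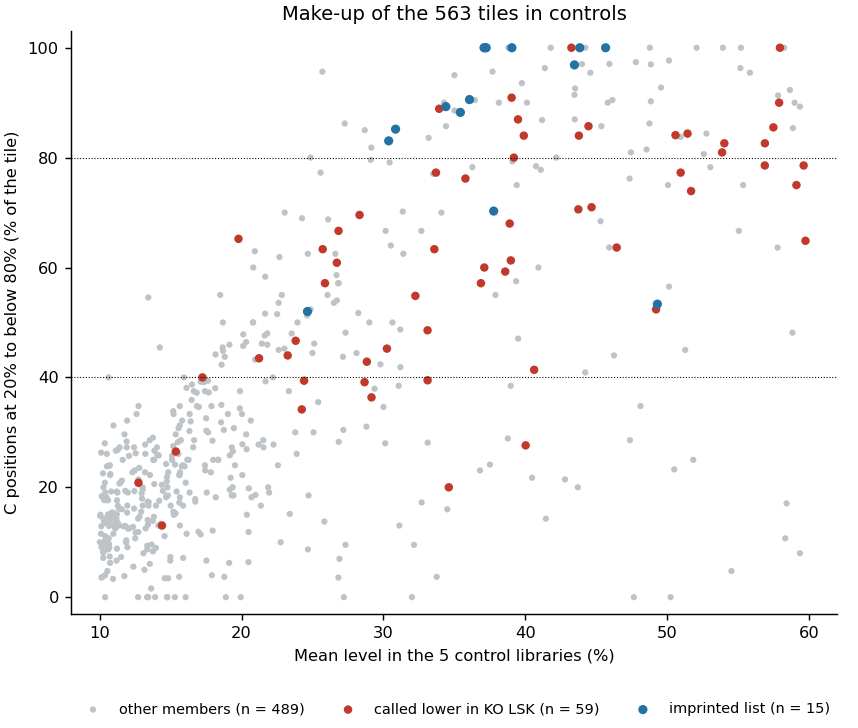
Each point is 1 of the 563 tiles, with its mean level in the 5 control libraries on the x axis (percent) and the share of its C positions at 20% to below 80% on the y axis (percent). Dotted lines mark the limits of 80% (uniform, above) and 40% (mixed, below), red points are the 59 tiles called lower in KO LSK, and blue points are the 15 tiles of the imprinted list, of which 12 are uniform.

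At 40% to below 60%, the extremes of make-up were easy to name. Dchs1 (a large cadherin of the Fat/Dachsous planar polarity system), Grb10 (an adaptor of growth factor receptors, imprinted), Cracd (a regulator of actin capping), Zbtb7c (a BTB zinc finger protein) and Prdm16os (an RNA gene opposite Prdm16) had 100% of their positions at intermediate levels. The Dchs1 tile held 74 positions and the Grb10 tile 47. Sirt7 (a nuclear deacylase), with 26 positions, and 1600014C23Rik, with 20 positions, had none there, followed by Zbtb12 at 4.76%, Pear1 (a platelet receptor) at 8% and Gm8495 at 10.7%. In the Sirt7 tile, 13 positions were below 20% and 13 at 80% or more, on either side of an unlisted gap of the tile, although the pooled level of 47.7% is close to that of Dchs1 at 44.2%.

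Members lay at start sites, in genes and between genes. A RefSeq start site lay inside 119 members (21.1%) and within 1 kb of a further 100 (17.8%). Another 300 (53.3%) lay in genes further from a start, against 52.3% of all tested tiles, and 44 (7.82%) lay between genes. Of CpG-dense tiles below the range, 51.3% held a start site, and of those above it 5.73% did. Both neighbouring tiles were measured for 81 members. For 38 of these (46.9%) 1 neighbour was methylated (60% or more) and the other unmethylated (below 10%), against 14.1% of 2322 tiles below the range and 15.4% of 78 above it. The median share of intermediate positions was 21.7% in these 38 tiles. A further 14 members had partial tiles on both sides, including the Gnas tile at chr2:174299001-174300000. The strands agreed within a median of 2.65 points at 3907 CpGs read on both (Pearson r = 0.936 across CpGs, which are not independent).

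In LSK cells the loss of Dnmt3a went with lower methylation of the partly methylated tiles. The mean level over the 563 members was 20.6%, 17.6% and 18.7% in the KO LSK libraries (mean 19.001% ± 1.51, SD, n = 3), against 23.1%, 23.99% and 22.9% in the control LSK libraries (mean 23.3% ± 0.572, n = 3). The groups did not overlap, and the difference of -4.33 points was larger than either SD. Leaving out KO LSK library 1327 gave -5.14 points, and leaving out KO LSK library 1333 gave -3.65. Between libraries with many Y positions, KO 1327 minus control 1326 was -2.43 points, and among the 4 with few it was -5.28. The part of this Y split in the result was not tested. When the control GMP libraries alone chose the tiles, which leaves the LSK controls out of the choice, the difference over 596 tiles was -3.76 points. In other classes KO minus control LSK was -3.37 points for CpG-dense tiles above the range and -0.125 points for those below it. It was -5.81 points for CpG-sparse tiles of the same range.

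The decrease stood at every level of methylation. For this the C positions were sorted into bins on control GMP levels, which the LSK comparison did not use. Positions at 0 to 5% averaged 1.87% ± 0.204 in KO LSK and 2.51% ± 0.175 in control LSK (n = 3 each). Positions at 40 to 60% averaged 34.4% ± 2.28 in KO LSK and 41.5% ± 0.770 in control LSK. Positions at 60 to 80% showed the largest difference of the 6 bins, with 49.0% ± 2.56 in KO LSK and 59.3% ± 0.293 in control LSK, or -10.3 points. The same bin gave -12.2 points in CpG-dense tiles below the range and -8.34 points in those above it, so this loss was not particular to members. Positions at 80 to 100% averaged 74.5% ± 1.70 in KO LSK and 84.0% ± 0.0476 in control LSK. In each of the 6 bins all 3 KO LSK libraries were below all 3 control LSK libraries. Within the mixed tiles KO minus control LSK was -7.45 points over 2969 positions at 20% to below 80% in control GMP and -7.37 points over 713 high positions. It was -1.46 points over 9148 low positions.

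**Figure D2:**
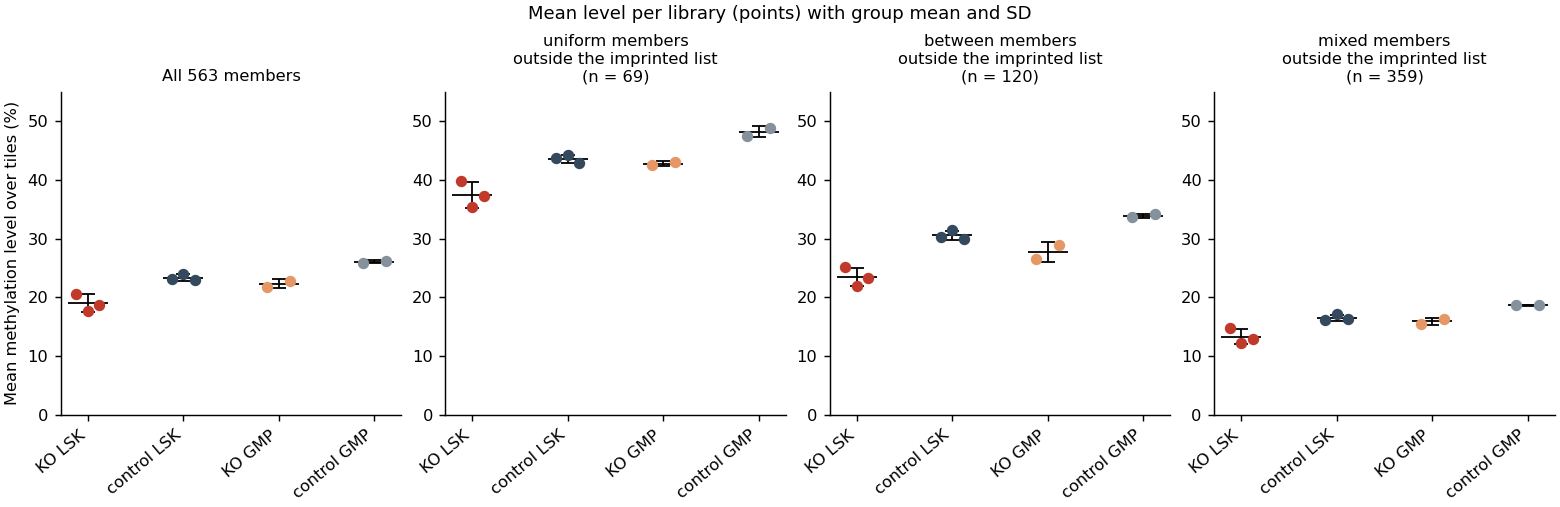
Points are libraries, with the mean methylation level over tiles on the y axis (percent) and the 4 groups on the x axis, and black lines and bars are group means and SD (n = 3 for LSK, n = 2 for GMP). The left panel covers all 563 members, where KO libraries lie below control libraries in both cell types, and the others split the members outside the imprinted list into 69 uniform, 120 between and 359 mixed tiles.

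Tile by tile, 59 members fell and none rose in KO LSK (quasi-binomial model with limma-moderated dispersion, Benjamini-Hochberg adjusted p under 0.05 and at least 10 points). That is 10.5% of the members, against 2.37% of all tested tiles for falls and 0.015% for rises. The share was 9.06% in CpG-dense tiles above the range and 11.6% in CpG-sparse tiles of the same range, so the members' share is close to that of other tiles with methylation to lose. Without adjustment, 230 members were lower and 9 higher at p under 0.05 (background 11.1% and 1.18%), and both limma fits also called 0 members higher. A fit of the LSK libraries alone called 50 lower (background 1.73%), of which 49 were among the 59. In 230 members (40.9%, background 15.3%) all KO LSK libraries lay below all control LSK libraries, and in 7 (1.24%, background 3.33%) above. The median difference over the members was -2.97 points, against -0.363 points over all tested tiles, and over the 59 it was -16.5 points. At a threshold of 20 points, 17 members fell (background 0.991%).

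The largest fall was at Zcchc3 (chr2:152413001-152414000, 22 C positions), a zinc finger protein that binds nucleic acids. Its level was 14.9%, 10.3% and 9.01% in KO LSK, against 43.9%, 39.3% and 46.8% in control LSK. The pooled difference was -32.0 points (adjusted p = 2.33e-05), and the groups lay far apart. Pxn (chr5:115544001-115545000), which encodes the focal adhesion adaptor paxillin, had 12.7%, 7.91% and 10.04% in KO LSK, against 36.5%, 42.7% and 40.8% in control LSK (-30.0 points, adjusted p = 3.21e-05).

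The Hoxa5 tile (chr6:52204001-52205000, 69 C positions) holds the start of Hoxa5, a homeobox transcription factor, and also overlaps longer transcripts of Hoxa3, Hoxaas3 and Hoxa6. Its level was 30.4%, 17.0% and 19.7% in KO LSK, against 57.7%, 43.5% and 54.4% in control LSK (-29.8 points, adjusted p = 0.000732). Both groups spread by over 10 points here, yet they did not overlap. All 69 positions were lower in KO LSK on average, and at 44 the KO LSK libraries lay below all control LSK libraries. In KO GMP 49 of the 69 were lower. The tile was named for its fall in the LSK libraries, and neighbouring positions share reads, so these counts only describe it.

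Ltbp3 (chr19:5757001-5758000), which encodes a protein that binds latent TGF-beta, had 10.2%, 13.2% and 6.98% in KO LSK, against 39.5%, 36.2% and 40.2% in control LSK (-28.4 points, adjusted p = 0.000984). Gfi1 (chr5:107721001-107722000), a zinc finger repressor needed for neutrophil formation and stem cell function, had 5.52%, 10.7% and 8.92% in KO LSK, against 35.0%, 41.1% and 33.1% in control LSK (-27.6 points, adjusted p = 0.000239). All 32 C positions of the Gfi1 tile were lower in KO LSK and in KO GMP. The tile lies in a 5-Mb window where several C positions were listed in both libraries of a GMP genotype and in neither of the other, and the part of this in the GMP values was not tested.

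Palm3 (chr8:84021001-84022000), of the paralemmin family, had 31.1%, 22.6% and 27.8% in KO LSK, against 52.3%, 54.2% and 54.3% in control LSK (-26.3 points, adjusted p = 0.000121). The next falls were at Arhgap8 (a GTPase-activating protein, -24.4 points), Antxr2 (an anthrax toxin receptor that binds matrix proteins, -24.3 points), Cercam (-24.1 points) and a tile with no gene within 10 kb, nearest to Padi1 (-23.2 points). Their adjusted p-values were 0.00037, 2.6e-05, 3.03e-05 and 0.000577. Of these 10 tiles, Hoxa5 and Palm3 held a start site, 7 lay inside genes away from a start, and 1 lay between genes.

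**Figure D3:**
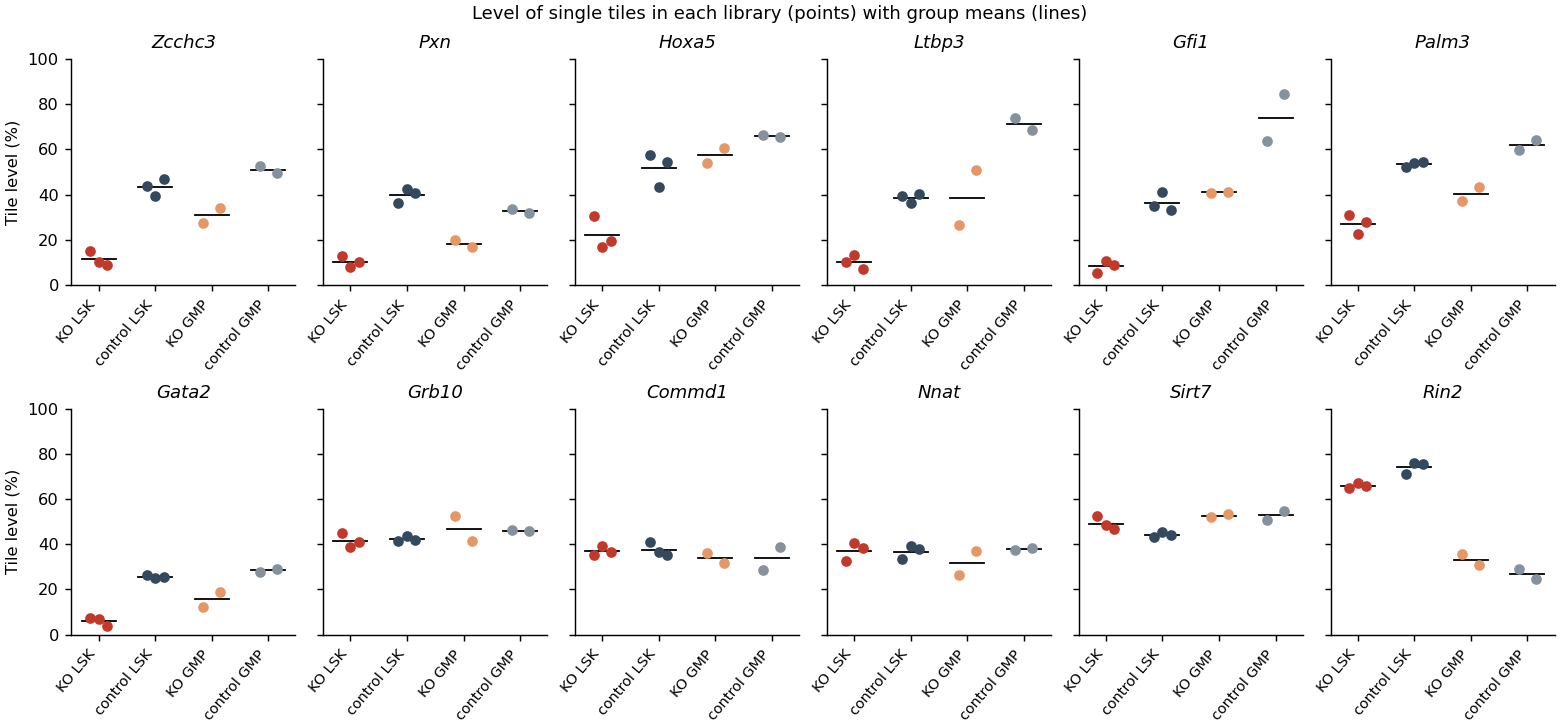
Each panel is 1 tile named by its gene, with the tile level on the y axis (percent), the 4 groups on the x axis, points for libraries and lines for group means. Zcchc3, Pxn, Hoxa5, Ltbp3, Gfi1, Palm3 and Gata2 lie lower in KO LSK than in control LSK without overlap, Grb10, Commd1, Nnat and Sirt7 do not pass the test, and Rin2 differs mainly between GMP and LSK.

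Regulators of blood and body plan were among the tiles that fell. On a list of Hox genes and homeobox cofactors, 3 of 10 members fell in KO LSK, at Hoxa3, Hoxa5 and Hoxa6, and none rose. Over all members 10.5% fell, and over all tested tiles 2.37%. The median difference of the 10 was -3.75 points, against -2.97 over all members and -0.363 over all tested tiles. The 3 tiles lie close together on chromosome 6, between 52175001 and 52209000. Hoxa6 (chr6:52208001-52209000) had 5.80%, 4.71% and 3.18% in KO LSK, against 19.2%, 17.7% and 18.8% in control LSK (-14.1 points, adjusted p = 0.000225). Its promoter was below 1% in both, so the loss lay in the rest of the tile. The other 7 Hox members, in Hoxa11, Hoxb2, Hoxc4, Hoxc5, Hoxd3, Hoxd10 and Hoxd12, differed by -1.88 to -6.92 points and did not pass.

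Gata2 (chr6:88200001-88201000), a zinc finger factor of stem and progenitor cells, had 7.20%, 6.73% and 3.77% in KO LSK, against 26.3%, 24.9% and 25.5% in control LSK (-19.7 points, adjusted p = 8.48e-05). The leukaemia list had 3 members in 2 genes, and all fell, against 10.5% of members and 2.37% of all tested tiles. They were the Gata2 tile and a pair in Mn1, a transcriptional cofactor fused in some human myeloid leukaemias. The Mn1 tile at chr5:111418001-111419000 (83 C positions) had 3.12%, 2.13% and 3.10% in KO LSK, against 12.1%, 18.3% and 12.6% in control LSK (-11.4 points, adjusted p = 0.000224). The tile 2 kb further on differed by -16.9 points (adjusted p = 0.00783), and the Mn1 tile between them was outside the range at 83.5%. Without control LSK library 1330 the first of these Mn1 tiles did not reach 10 points.

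For the lists that follow, the shares to set beside the counts are 10.5% of all members and 2.37% of all tested tiles. On the list of developmental transcription factors 1 of 11 members fell, at Hand1 (a factor of heart and limb development, -13.9 points, adjusted p = 0.00632). The others that are named here lay in Foxc1, Foxf1, Gata3, Gata4, Gata6, Lhx1, Tbx1 and Tbx4, with differences of -9.18 to 0.260 points. Gfi1 fell as 1 of 2 members on the myeloid list, and Csf2ra, a subunit of the GM-CSF receptor, differed by -10.2 points without passing. Gata2 was the only member of 5 to fall on the self-renewal list. The lymphoid list had 2 members (Gata3 and Tcf7), the germline list 1 (Dazl, 0.586 points) and the stroma and endothelium list 1 (Nos3, -2.47 points). None of these 4 passed. No member lay on the lists of erythroid, cytokine signalling, adhesion or methylation machinery genes.

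No tile of the imprinted list passed a KO test. Imprinted genes are expressed from the allele of a single parent, and their control regions keep a methylated and an unmethylated allele. There were 15 members, in Cdkn1c, Commd1, Gnas, Grb10, Igf2r, Impact, Magel2, Mkrn3, Nnat and Plagl1, with a median control level of 37.2%. Of these, 12 were uniform. None of the 15 passed in KO LSK or KO GMP, whether in the joint model, in the fits of each cell type alone or in either limma fit. At an unadjusted p under 0.05, 1 was lower in KO LSK and 2 in KO GMP (background 11.1% and 5.42%). Of all 563 members, the joint fit called 1 lower in KO GMP (background 0.0629%). The fit of the GMP libraries alone called 24 (background 0.41%). With so few calls to share out, none among 15 does not set the imprinted list apart in GMP. The LSK differences of the 15 ran from -5.04 to 2.84 points, with a median of -0.701. The lowest, at Plagl1 (chr10:13091001-13092000), had 36.3%, 38.7% and 38.8% in KO LSK, against 42.5%, 47.2% and 39.8% in control LSK. It had 39.1% and 35.2% in KO GMP, against 52.6% and 46.2% in control GMP (-11.9 points). All KO libraries lay below all controls at 1 of the 15 in LSK and at 3 in GMP (background 15.3% and 25.9%). A Gnas tile was higher in KO GMP without overlap. The 69 uniform members outside the list, with a median control level of 45.4%, had a median LSK difference of -3.43 points, and 16 of them (23.2%) fell in KO LSK. The difference between these sets was not tested.

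The tile near the Grb10 start (chr11:12026001-12027000) had 45.0%, 38.6% and 40.9% in KO LSK, against 41.4%, 43.6% and 42.1% in control LSK, and the groups overlapped (-0.895 points). The Commd1 tile (chr11:22972001-22973000), in an intron region that holds the imprinted gene Zrsr1, had 35.2%, 39.3% and 36.4% in KO LSK, against 40.9%, 36.7% and 35.3% in control LSK (-0.701 points). Nnat (chr2:157560001-157561000), which encodes the membrane protein neuronatin, had 32.5%, 40.5% and 38.2% in KO LSK, against 33.6%, 39.1% and 37.7% in control LSK (0.475 points). Libraries of the same group differed by several points at each of these tiles, which is more than the KO difference.

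Gnas, which encodes the stimulatory G-protein alpha subunit, had 4 members, more than any other gene, all of them uniform. Their LSK differences were -3.13, -0.816, 0.905 and 2.84 points. The first of them (chr2:174284001-174285000) spread widely, with 41.4%, 14.997% and 26.8% in KO LSK, against 35.6%, 28.8% and 31.1% in control LSK. Impact (chromosome 18) showed how far a single library can move such a tile. It had 32.9% and 31.8% in KO GMP, against 36.7% and 82.2% in control GMP, so its difference of -24.8 points rests on control GMP library 349.

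**Figure D4:**
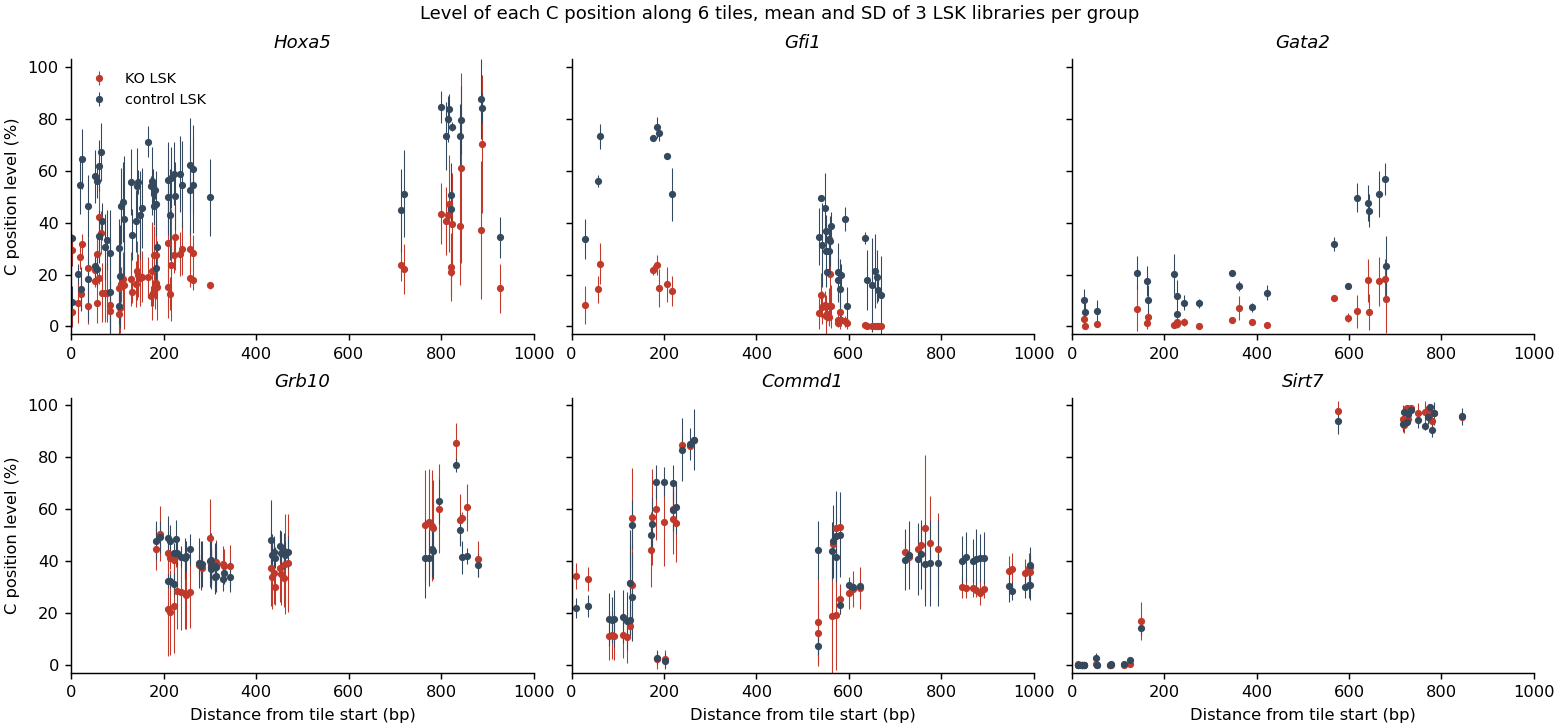
Each panel is 1 tile, with the distance from the tile start on the x axis (bp) and the level of each C position on the y axis (percent), and points and bars are the mean and SD of 3 KO LSK (red) and 3 control LSK libraries (dark). KO LSK lies below control LSK at all 69 positions of Hoxa5, 32 of Gfi1 and 23 of Gata2, at 29 of 47 in Grb10 and 29 of 53 in Commd1, and Sirt7 consists of a low block and a high block. Hoxa5, Gfi1 and Gata2 were picked because they were called in these LSK libraries.

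Small differences were also found outside the imprinted list. Cilp2 and Fignl2 were named because they had 3 members each, a number shared by 5 other genes of which 1 is Hoxa3. The Fignl2 tiles are adjacent, with control levels of 43.5%, 13.03% and 31.2%, and differed by -0.584, 0.0787 and -1.79 points in KO LSK. The Cilp2 tiles differed by 1.77, 5.38 and -1.15 points. The smallest differences in both cell types among tiles at 40% to below 60% were at Cd22 (an inhibitory lectin of B cells), Kcng4 (a potassium channel subunit) and Grb10. Cd22 had 47.5%, 45.4% and 44.3% in KO LSK, against 48.3%, 42.5% and 46.7% in control LSK. In the Sirt7 tile the level was 52.4%, 48.4% and 46.6% in KO LSK, against 43.3%, 45.4% and 44.1% in control LSK. That pooled level is higher in KO LSK without overlap, but it did not pass (4.90 points, adjusted p = 0.388). The differences at its 26 single positions ran from -5.06 to 5.43 points in LSK. A pooled level also moves with the split of reads between the low and the high block of this tile, and the part of this was not tested.

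Calls were unequal between make-ups. Of the 59 members that fell in KO LSK, 16 were uniform (19.8% of uniform tiles), 32 lay between (26.02% of those) and 11 were mixed (3.06% of those). Control levels moved with make-up, and the median was 14.8% in mixed tiles. Among tiles at 30% to below 60%, 16 of 76 uniform, 22 of 57 between and 3 of 31 mixed tiles fell. Of the 59, 20 (33.9%) lay at or within 1 kb of a start site, as did 219 of all 563 members. Of all tested tiles, 12.1% held a start site and a further 9.30% lay within 1 kb of a start.

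In GMP cells the mean level of the members was also lower in KO. It was 21.7% and 22.8% in KO GMP (mean 22.3% ± 0.775, SD, n = 2), against 25.9% and 26.3% in control GMP (mean 26.1% ± 0.247, n = 2). The groups did not overlap, and the difference was -3.79 points. It was -2.31 points for CpG-dense tiles above the range, -0.174 for those below it and -3.27 for CpG-sparse tiles of the same range. Both KO GMP libraries kept reads over the Dnmt3a segment, and the part of cells without the deletion in these values was not tested. C positions binned by control LSK were lower in KO GMP in all 6 bins, by -0.674 points at 0 to 5% and by -8.12 points at 60 to 80%.

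Only 1 member passed in KO GMP, at Fbrsl1 (chr5:110386001-110387000, within 1 kb of a start site). It had 4.56% and 3.64% in KO GMP, against 24.3% and 16.1% in control GMP (-16.5 points, adjusted p = 0.0285). Like the Gfi1 tile, it lies in a 5-Mb window with C positions listed in a single GMP genotype, and the part of this in the call was not tested. The background was 0.0629% for falls and 0.00999% for rises, and 0 members rose. Without adjustment 118 members were lower and 8 higher at p under 0.05 (background 5.42% and 1.03%). The limma fit on logit levels called none lower and that on unweighted levels 5, and neither called any higher. The fit of the GMP libraries alone called 24 members lower (background 0.41%) and 2 higher (background 0.0409%). The Fbrsl1 call was lost when any 1 of the 4 GMP libraries, or control LSK library 1330 or 1331, was left out. In 286 members (50.8%, background 25.9%) both KO GMP libraries lay below both control GMP libraries, and in 43 (7.64%, background 11.2%) above.

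The members that fell in KO LSK were mostly lower in KO GMP too, at shares near those of other tiles that fell in KO LSK. The LSK and GMP comparisons share no library. Of the 59, 54 (91.5%) had a GMP difference below 0, against 92.3% of all 2378 tiles called lower in KO LSK. In 51 (86.4%) both KO GMP libraries lay below both control GMP libraries, against 74.5% of those 2378 tiles. The fit of the GMP libraries alone, which rested on its prior as said above, called 17 of the 59. At Ltbp3 the level was 26.4% and 51.1% in KO GMP, against 74.0% and 68.6% in control GMP (-32.6 points, adjusted p = 0.00467 in the GMP fit and 0.102 in the joint fit). At Gfi1 it was 40.7% and 41.4% in KO GMP, against 63.6% and 84.4% in control GMP (-31.7 points, 0.00289 and 0.102). At Hoxa5 the GMP groups were closer, with 54.1% and 60.6% in KO GMP, against 66.3% and 65.6% in control GMP (-8.42 points, joint adjusted p = 0.971). Across the 563 members the LSK and GMP differences had a Pearson correlation of 0.474 and a Spearman correlation of 0.387, against 0.408 and 0.205 over all tested tiles, where tiles share libraries and are not independent.

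**Figure D5:**
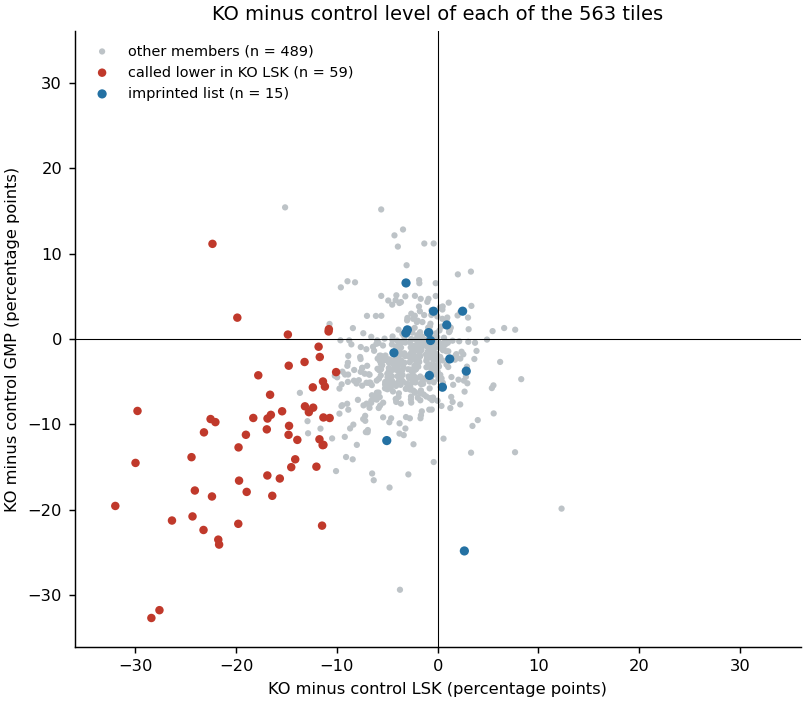
Each point is 1 of the 563 tiles, with KO minus control LSK on the x axis and KO minus control GMP on the y axis (percentage points). The 59 tiles called lower in KO LSK (red) were chosen on the x axis, and 54 of them lie below 0 on the y axis, and none of the 15 tiles of the imprinted list (blue) passed a KO test.

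No member passed the test of a different KO effect in GMP and LSK. That test was the product of cell type and genotype, its background was 0.0% in both directions, and the smallest adjusted p was 0.197. Without adjustment 62 members had p under 0.05 (background 4.34%), 46 with a higher and 16 with a lower GMP difference (background 2.48% and 1.86%). The limma fit on unweighted levels called 1 and that on logit levels none. Differences that passed in LSK and not in GMP, such as that at Hoxa5, are thus not shown to be particular to LSK.

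KO GMP and KO LSK libraries were also compared with each other, since neither chose the members. The mean level was 22.3% in KO GMP and 19.001% in KO LSK, a difference of 3.29 points, and control GMP was 2.75 points above control LSK. Both KO GMP libraries and KO LSK library 1327 listed many Y positions, and against that library alone the difference was 1.67 points. The part of the Y split in this comparison was not tested. The KO groups also differed over the Dnmt3a segment. KO GMP libraries 178 and 179 listed 4 and 5 of its 5 C positions, and each KO LSK library listed 0. Cell type and the extent of the deletion thus differed together between these groups, and the part of each was not tested. In this comparison 22 members were higher in KO GMP (3.91%, background 0.361%) and 2 lower (0.355%, background 0.857%). In 233 members (background 12.1%) both KO GMP libraries lay above all KO LSK libraries, and in 33 (background 15.9%) below. The count of 22 was 3 without KO GMP library 179, 12 without KO LSK library 1334 and 39 without KO LSK library 1327.

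Hoxa5 had the largest such difference, with 54.1% and 60.6% in KO GMP, against 30.4%, 17.0% and 19.7% in KO LSK (35.3 points, adjusted p = 0.00286). Gfi1 followed, with 40.7% and 41.4% in KO GMP, against 5.52%, 10.7% and 8.92% in KO LSK (32.7 points, adjusted p = 0.000497). Control GMP was likewise above control LSK at both, by 13.9 and 36.8 points. Snx20, a sorting nexin that binds the selectin ligand PSGL-1, had 46.1% and 63.2% in KO GMP, against 35.1%, 16.7% and 21.2% in KO LSK (29.8 points, adjusted p = 0.0188). There control GMP differed from control LSK by -0.756 points. Ltbp3 and Fam110a were higher in KO GMP by 28.4 and 23.0 points.

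The 2 members lower in KO GMP were Rin2 and Pip4k2b. Rin2 (chr2:145860001-145861000), an exchange factor for Rab5, had 35.5% and 30.9% in KO GMP, against 64.8%, 67.1% and 65.6% in KO LSK (-32.8 points, adjusted p = 0.000101). Pip4k2b (chr11:97718001-97719000), a phosphatidylinositol phosphate kinase, had 17.7% and 16.2% in KO GMP, against 36.5%, 37.2% and 34.9% in KO LSK (-19.3 points, adjusted p = 0.000547). Control GMP was below control LSK at both, by -47.6 and -30.9 points, and Pip4k2b also fell in KO LSK (-14.8 points, adjusted p = 0.00139).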

How the data were processed

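DNA methylation was measured by enhanced reduced representation bisulfite sequencing in 11 libraries, of which 10 were grouped by title and genotype field. Per the labels' protocols, DNA was digested by MspI and size-selected at 150 to 400 bp before bisulfite conversion. Sequencing was single-end over 50 bases. Bismark is named, as are builds mm10 and GRCm38, per the submitters' processing notes. Its version is not given in the sources used here. Each deposited file lists C positions of CpGs, strands apart, with the authors' read count (coverage) and their percent values for C and for T, per the file headers. Listed positions had at least 10 reads, so an unlisted position is not a count of 0. Coverage times percent gave whole reads at 100% of positions, within the rounding of the deposited percent.

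Tiles of 1000 bp were built from the 1293035 C positions with 10 or more reads in all 10 libraries. Each tile's methylated and unmethylated reads were fitted with a quasi-binomial model with a mean for each of the 4 groups (R 4.3.3). The dispersion was moderated by limma 3.58.1 with a trend on log coverage, a prior from tiles at 5% to 95%, and a floor of 1. F tests were adjusted by Benjamini-Hochberg over all tiles, and a call also needed a difference of at least 10 points in the pooled level. Tested on simulated data, the joint fit was slightly lenient in LSK and strict in GMP. The simulation gave all libraries of a tile the same correlation among reads. The deeper LSK libraries thereby got more spread beyond read sampling than the GMP libraries. That outcome therefore does not show how the joint fit behaves on the real data. Fits of each cell type alone are given beside it. Mean levels over members, shares and correlations carry no test.

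The members and the gene lists were chosen with earlier results of these data known. A tile was named by the RefSeq genes (GRCm38.p6) it overlaps or the nearest within 10 kb. Named were the 10 largest falls and 5 largest rises per KO test, the 5 largest differences in each direction in the other tests, the 3 tiles nearest each limit, the 5 most and least uniform, the 3 genes with most members (ties by name), called list members, up to 10 imprinted members and the 3 with least difference. Prom2, a called tile outside this rule, and list members without a call were named after their values were seen. Alternatives were other priors, models, thresholds, coverage minimums, member choices, a shifted grid and leaving out each library. Reads have no molecular identifiers, so counts of reads overstate the number of molecules. Replicate libraries differed by more than read-sampling noise (chi-square per position 3.31 to 8.77), which does not show that they came from separate animals.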

Additional observations from a re-analysis of the deposited data

Results flagged for a closer look

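Rin2 (chr2:145860001-145861000) was singled out among the named members. Its KO differences ran in opposite directions in the 2 cell types, and KO and control libraries overlapped in neither. In GMP both KO libraries (35.5% and 30.9%) lay above both control libraries (29.1% and 24.4%). In LSK all KO libraries (64.8%, 67.1% and 65.6%) lay below all control libraries (71.1%, 75.8% and 75.4%). The GMP difference minus the LSK difference was 14.8 points, and the interaction did not pass after adjustment over all tiles (limma-moderated quasi-binomial test, adjusted p = 0.935). Neither KO difference passed on its own (joint adjusted p = 0.843 in GMP and 0.0564 in LSK). Rin2 was not the tile with the widest opposite differences. Snx20 differed by -15.1 points in LSK, where the groups overlapped, and by 15.4 points in GMP.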

How the results depend on the processing

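No paired analysis was possible because the library numbers in the titles are not shared between groups. The mean difference over the members in LSK was -2.43 points between the libraries with many Y positions. Under the other alternatives run, the mean differences in both cell types moved by less than the KO SD, with leave-one-out ranges of -5.14 to -3.65 points in LSK and -4.33 to -3.24 points in GMP. The count of 59 members lower in KO LSK became 18 without moderation, 31 in limma on logit levels, 17 at 20 points, 21 for members with 30 or more C positions and 25 with only the libraries with many Y positions. Leaving out 1 library gave 42 (without control 1330) to 84 (without KO 1327). Members higher in KO LSK numbered 0, but 1 with the deepest positions left out, 2 with only many-Y libraries and 0 to 1 without 1 library. The count of 1 member lower in KO GMP became 24 and 2 higher with GMP libraries alone, 22 and 2 higher with the C positions of the cell type, and 20 and 2 higher with only many-Y libraries. It became 5 with a prior on all tiles or in limma on unweighted levels, and 2 with members by the other cell type or the grid shifted by 500 bp. It became 0 without moderation, in limma on logit levels, at 20 points, with 10 or more positions per tile, with the windows left out (which removes the Fbrsl1 tile), for members at 20% to below 50% or with 30 or more positions, and with GMP libraries alone and a prior on all tiles. Without 1 library it was 0 to 4, and members higher in KO GMP stayed at 0. The interaction count of 0 became 1 with a prior on all tiles and in limma on unweighted levels, 3 with only many-Y libraries, and 0 to 2 without 1 library (2 without KO LSK 1333). The 22 members higher in KO GMP than in KO LSK became 1 without moderation, 10 and 9 in limma on logit and unweighted levels, 9 at 20 points, 6 with 10 or more positions per tile, 11 at 20% to below 50% and 11 with 30 or more positions, and 3 to 39 without 1 library. The 2 lower became 4 with a prior on all tiles or coverage of 20, 1 in limma on unweighted levels, at 20 points and at 20% to below 50%, 0 with 30 or more positions and on the shifted grid, 5 with only many-Y libraries, and 2 to 4 without 1 library. Position limits of 10% and 90% gave 31.6% uniform and 34.6% mixed tiles. The 30 calls at named tiles were kept in 587 of 667 alternatives, lost in 80 and reversed in 0. The cause of these changes was not tested. Alternatives by Y positions, and cell types alone with a prior on all tiles, were chosen after seeing the data. Depth in GMP was lower than in LSK, and 2 libraries a group limit what GMP tests can call.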

Other observations

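Library 352, from GMP cells, has labels that disagree on its genotype and entered no comparison. Its mean level over the members was 20.3%. Among the grouped GMP libraries this mean was 21.7% and 22.8% in KO 178 and 179, and 25.9% and 26.3% in control 346 and 349. It lay below both KO GMP libraries at 284 members and above both at 142. At the 59 members that fell in KO LSK its mean was 17.1%, with 26.8% and 31.1% in KO GMP and 40.1% and 41.0% in control GMP. At the 15 imprinted members it was 38.0%, with 38.1% and 36.9% in KO GMP and 39.1% and 41.0% in control GMP. It listed 0 of the 5 C positions of the Dnmt3a segment, and since the files list only positions with 10 or more reads, this does not give the number of reads there.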
